A study of Mus musculus with 4 samples.

Results

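Heat shock genes and immediate early genes are the transcripts that cells make fastest when they are stressed or stimulated, and they were followed here through the leukocytes of B16-F10 mouse tumours treated with antibodies to CD40 and PD1. The set held 33 of the 32285 genes in the count matrices, chosen by gene symbol: 17 heat shock genes and 16 immediate early genes. The 2 groups were read separately, as summed and single-gene counts within each cell class of each library. All 33 symbols were found.

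Heat shock proteins are chaperones that hold, fold or refold other proteins. Hspa8 (Hsc70) and Hsp90ab1 are the constitutive cytosolic members, while Hspa1a and Hspa1b (Hsp70), Hsph1, Hspb1, Dnajb1 and Bag3 are switched on by heat shock factor 1 when unfolded protein accumulates. Immediate early genes answer kinase signalling within minutes without new protein synthesis. Among them are the AP-1 subunits of the Fos and Jun families, the zinc finger factors Egr1, Klf4 and Klf6, and brakes on the same signals, such as the phosphatase Dusp1 and Zfp36 (tristetraprolin), which marks cytokine mRNAs for decay. Both groups are also known to respond to tissue handling while cells are being prepared.

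Mice carried tumours of B16-F10, a mouse melanoma line, and were dosed on days 8 and 11 after inoculation. Antibody to CD40, a receptor on antigen-presenting cells, or dilution buffer was put into the tumour, and antibody to PD1, an inhibitory receptor of T cells, or IgG was given intravenously. The 4 groups were control (IgG), CD40 antibody, PD1 antibody, and both antibodies (combination), and tumours were taken on day 14. Tumours were pressed through filters, red cells were lysed, live CD45+ cells were sorted, and the cells of 6 mice per group were pooled into 1 droplet library. The labels give the cell type as melanoma and no mouse strain, sex or age. A UMI of Ptprc, which encodes CD45, was found in 93.1% to 95.3% of the cells kept.

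Promoter sequences of some members are shown because those of the first 5 match letters of the element that heat shock factor 1 binds, and because those of 1 pair are nearly identical. Each line gives 60 bases of the GRCm38.p6 strand that carries the gene, 5′ to 3′, from RefSeq, and capitals mark a matched motif. For the first 5 genes the motif is a pair of inverted heat shock half-sites, GAANNTTC or TTCNNGAA, each of which reads the same on both strands. For Dusp1 and Btg2 it is the palindromic cAMP response element TGACGTCA.
Hspa1a, chr17:34972227-34972286, minus strand: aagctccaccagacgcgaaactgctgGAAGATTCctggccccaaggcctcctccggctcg
Hspa1b, chr17:34959309-34959368, minus strand: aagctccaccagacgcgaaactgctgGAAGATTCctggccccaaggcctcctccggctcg
Hspb1, chr5:135887789-135887848, plus strand: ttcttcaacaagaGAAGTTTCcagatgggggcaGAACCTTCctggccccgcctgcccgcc
Hsph1, chr5:149636347-149636406, minus strand: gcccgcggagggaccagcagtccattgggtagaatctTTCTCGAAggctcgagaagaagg
Hspe1, chr1:55088038-55088097, plus strand: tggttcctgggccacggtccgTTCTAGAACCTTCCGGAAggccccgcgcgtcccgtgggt
Dusp1, chr17:26508583-26508642, minus strand: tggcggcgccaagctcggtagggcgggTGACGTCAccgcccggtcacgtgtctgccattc
Btg2, chr1:134079286-134079345, minus strand: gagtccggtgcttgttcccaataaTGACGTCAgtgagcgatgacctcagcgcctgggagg

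The Hspa1a and Hspa1b stretches were letter for letter the same, and the 250 bases before their starts matched at 247 positions. The 2 genes lie on chromosome 17 with 9951 bases between them and encode near-identical transcripts, so a read may not be assignable to 1 of them. They are mainly given as a sum, which may miss reads that match both. A half-site pair stood in the 250 bases upstream of 9 of the 13 heat shock members matched to the promoter table (Hspa1a, Hspa1b, Hsph1, Hspb1, Hspd1, Hspe1, Dnaja1, Dnajb4 and Dnajb6) and of 2 of 14 matched immediate early members (Fosl2 and Jun). Counted by gene in the same way, these letters stood upstream of 14.55% of 27025 genes, near the 14.29% of the immediate early members. The longer heat shock element of 3 alternating half-sites, which overlaps the pair, was found for Hspd1, Hspe1 and Dnajb6 and for 0.5143% of genes. Hspd1 and Hspe1, the mitochondrial chaperonin and its lid, start head to head on chromosome 1 with 112 bases of overlap. The cAMP response element was found for Dusp1 and Btg2 and for 1.769% of genes, and the AP-1 letters TGANTCA for Bag3 and for 7.819%. These matches describe the letters and not binding.

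The libraries held 8132 to 10158 cell barcodes and 117735875 to 164755549 UMIs, and 7736 to 9681 cells per library were kept. Cells were put into classes by marker genes, and 6 classes were compared: CD8 T cells, CD4 T cells, Foxp3+ regulatory T cells (Treg), NK cells, mononuclear phagocytes and neutrophils. Mononuclear phagocytes were the largest class, with 3933, 4088, 5694 and 3597 cells. These values, like every run of 4 values below, are given for control first, then CD40 alone, PD1 alone and the combination. Levels are CPM, a gene's part of all UMIs of its class on the usual CPM scale. With 1 library per group there was no replicate and no test. All intervals are 95% intervals from exact Poisson or binomial counting, which cover counting error only and not cells, mice, sorting or library making. Those of levels and ratios take UMIs as independent, so they are too narrow where few cells hold many of the UMIs. The ribosomal RNA-linked transcript Gm42418 was highest in the control library in all 6 classes (19148, 15239, 13189 and 13115 CPM in phagocytes), and its part in the results was not tested.

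The 2 gene groups divided the cell classes in opposite ways. Summed immediate early levels were highest in neutrophils, at 12289, 7331, 11669 and 12031 CPM, against 2502, 2197, 3178 and 2809 in mononuclear phagocytes. They were lowest in CD8 T cells, at 1581, 1535, 1667 and 1853 CPM. Summed heat shock levels were lowest in neutrophils, at 1737, 2097, 1819 and 1389 CPM, and highest in CD8 T cells, at 5745, 5760, 6468 and 5632. Among the 6 classes, 13 of the 16 immediate early members were highest in neutrophils in all 4 libraries (the exceptions were Fosb, Jund and Klf4), and 7 of the 17 heat shock members were lowest there in all 4 (Hspa8, Hsph1, Hspd1, Hspe1, Hsp90ab1, Hspa4 and Chordc1). The share of all genes with these ranks is not given here, so no excess over other genes is read from either count. Neutrophils also had the fewest UMIs per cell, with medians of 2060.5, 3812, 2275.5 and 4552 against 13837, 18841.5, 12902 and 17644 in phagocytes. Cells with at least 2000 UMIs were thinned to 2000, and the others were left out. This kept 114, 453, 115 and 1112 of the 218, 495, 186 and 1171 neutrophils. A Fos UMI was then present in 40.4%, 32.5%, 41.7% and 25.5% of neutrophils and in 17.96%, 17.6%, 18.4% and 21.3% of phagocytes. Over all cells at full depth the shares were 48.6%, 47.1%, 51.6% and 37.1% of neutrophils and 51.7%, 55.9%, 53.0% and 60.02% of phagocytes. The order of the classes by share thus differed between these measures, which differ both in depth and in the cells held.

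**Figure D1:**
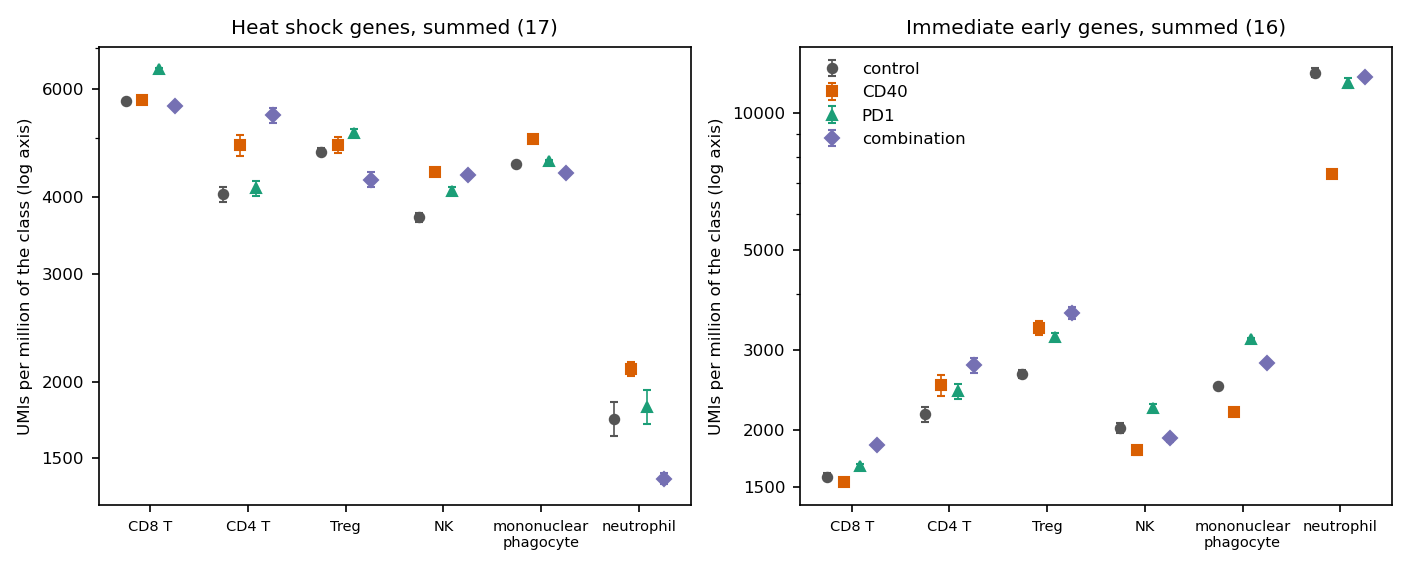
Summed level of the 17 heat shock genes (left) and the 16 immediate early genes (right) in 6 cell classes, in CPM on log axes. Each point is 1 library, and bars are 95% counting intervals. Neutrophils lie lowest on the left (1389 to 2097) and highest on the right (7331 to 12289), where the CD40 library is the lowest of the 4.

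Among the heat shock genes, the constitutive cytosolic chaperones carried most of the UMIs. In phagocytes Hspa8 was measured at 1448, 1750, 1707 and 1850 CPM, and Hsp90ab1 at 1427, 1555, 1410 and 1300. In CD8 T cells the same genes were measured at 1481, 1745, 1825 and 1865 CPM for Hspa8 and 2424, 2090, 2544 and 2071 for Hsp90ab1. The other members were lower: over 9 leukocyte classes (the 6 compared, conventional and plasmacytoid dendritic cells and B cells) and 4 libraries, the stress-linked Hsp90 gene Hsp90aa1 ranged from 183 to 527 CPM, the Hsp70 relative Hspa4 from 55.0 to 168 and the Hsp70 partner Dnaja1 from 111 to 285. Dnajb1 ranged from 30.4 to 120, Dnajb6 from 68.5 to 175 and St13, a cochaperone that binds Hsp70, from 56.1 to 113. Chordc1, which binds Hsp90, ranged from 7.45 to 96.2 and Bag3, an Hsp70 nucleotide exchange factor, from 0 to 38.0. Hspb1, a small heat shock protein, ranged from 0 to 38.2 and Dnajb4 from 0 to 25.5. The mitochondrial pair ranged from 20.8 to 255 for Hspd1 and from 28.2 to 370 for Hspe1. In the immediate early group, Jund was the most even member, from 192 to 1447 CPM, and Ier5 ranged from 59.0 to 709, while Ier3 ranged from 2.02 to 2100 and Atf3 from 0 to 545.

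In phagocytes the inducible Hsp70 pair was low in the combination. Hspa1a was measured at 91.3, 91.0, 96.1 and 30.3 CPM and Hspa1b at 69.0, 76.1, 74.4 and 25.1, so both genes were near the same level in 3 libraries and low in the combination. Summed, the pair was at 160, 167, 170 and 55.4 CPM, which was 3.08-fold lower in combination than in PD1 (log2 ratio -1.62, interval -1.67 to -1.57) and 3.02-fold lower than in CD40 (log2 ratio -1.59, interval -1.64 to -1.55). With either antibody alone the pair lay close to control, at log2 ratios of 0.06 for CD40 and 0.09 for PD1. Hsph1, the Hsp110 that recharges Hsp70, was measured at 30.7, 38.6, 31.5 and 18.2 CPM, with log2 ratios of -0.79 for combination against PD1 and -1.08 for combination against CD40. Hspb1 was measured at 37.4, 26.1, 11.3 and 3.46 CPM and was lower with PD1 antibody in both comparisons, by log2 ratios of -1.73 (PD1 against control) and -2.91 (combination against CD40).

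These 4 genes were the ones past a 1.5-fold difference in both comparisons of the combination with a single antibody. They were 4 of 17 heat shock members lower in combination than in PD1, where 5.06% of all 13393 genes measured in phagocytes were lower by that much and 5.58% higher. They were again the 4 of 17 lower in combination than in CD40, against 7.52% of all genes lower and 4.59% higher. The 2 comparisons share the combination library. Reads of Hspa1a and Hspa1b may not be separable, so these 2 members may count 1 signal. Against control, 0 of 17 heat shock members were past the fold in CD40, where 5.67% of all genes were higher and 6.05% lower, and 1 of 17 (Hspb1, lower) in PD1, where 5.23% were higher and 8.05% lower. Other members moved little: Hsp90aa1 was measured at 369, 359, 335 and 283 CPM, Dnajb1 at 36.9, 41.6, 40.0 and 36.7 and Bag3 at 30.9, 32.9, 28.1 and 31.6. Hspe1 was at 300.2, 312, 220 and 210 CPM and Hspd1 at 147, 160, 116 and 112, both lower in the 2 libraries with PD1 antibody. The 13 endoplasmic reticulum chaperones, a separate stress system, had 0 members past the fold in any phagocyte comparison. All 13 were below 0 for combination against PD1, with a median log2 ratio of -0.24, against a median of 0.006 over all genes.

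UMIs of the Hsp70 pair came from few cells. In phagocytes, 34, 30, 46 and 7 cells held 50% of all pair UMIs, and the 1% of cells richest in the pair held 53.7%, 58.3%, 55.4% and 80.9% of them. For Fos, the richest 1% of phagocytes held 14.0%, 12.8%, 13.9% and 12.4%. The largest number of pair UMIs in 1 phagocyte was 643, 713, 637 and 487. The Hsp70 pair was thus carried by a small part of the class in every library, whereas Fos was spread over many cells. Phagocytes with 20 or more pair UMIs, a limit set after the values were seen, made up 3.0% (118 cells, exact interval 2.49 to 3.58), 3.72% (152 cells, 3.16 to 4.34), 3.23% (184 cells, 2.79 to 3.72) and 0.862% (31 cells, 0.586 to 1.22) of the class. They held 81.1%, 88.4%, 86.6% and 78.9% of the pair UMIs. In the remaining phagocytes the pair was at 31.2, 20.2, 23.4 and 11.8 CPM, so the combination was also lowest outside the rich cells. Which of the 6 pooled mice a cell came from is not given, so it is unknown how many mice the 31 cells represent.

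**Figure D2:**
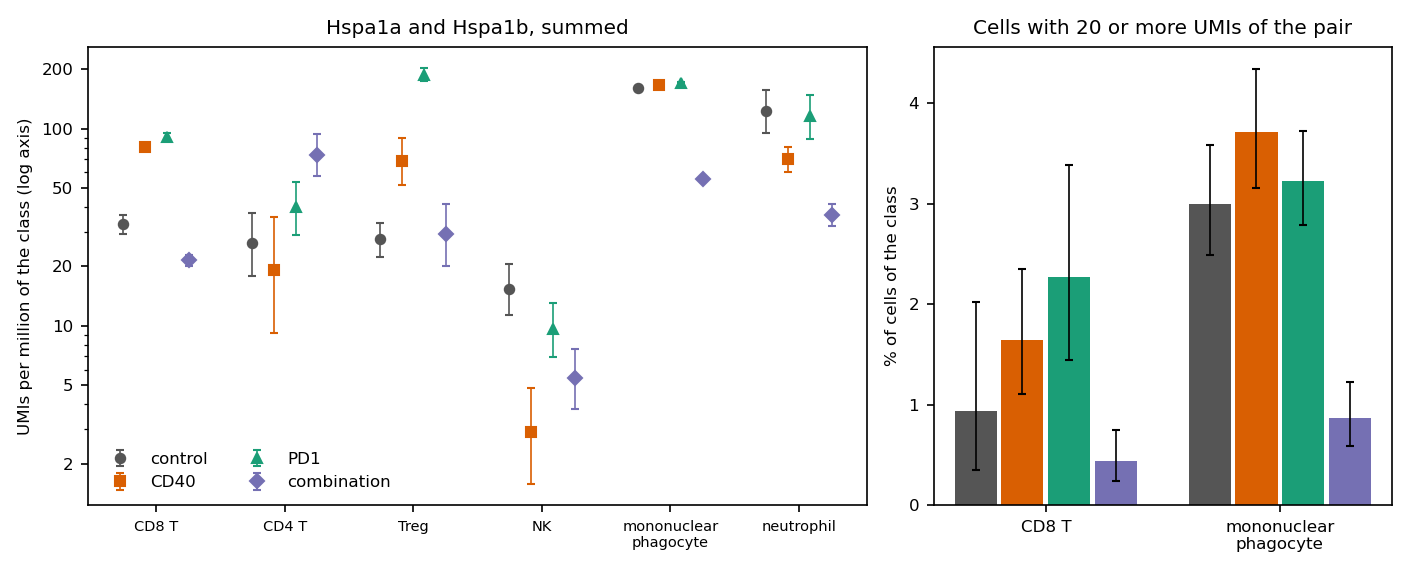
Left, summed Hspa1a and Hspa1b level in 6 cell classes, in CPM on a log axis, with 1 point per library and 95% counting intervals. Right, share of CD8 T cells and mononuclear phagocytes with 20 or more UMIs of the pair, with exact binomial intervals and the colours of the left panel. The combination is lowest in phagocytes on both sides (55.4 CPM, and 0.862% of cells).

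The share of cells with any UMI of the pair was lower in the combination too. At 2000 UMIs per cell it was 9.0%, 6.78%, 6.58% and 3.30% of phagocytes (17.7%, 16.3%, 12.9% and 11.7% at full depth). Plasmacytoid dendritic cells were taken as a measure of free RNA, which was not tested. They held the pair in 0 of 60, 0 of 23, 1 of 78 and 0 of 11 thinned cells, with median depths of 10436.5, 10903, 10342 and 11601 UMIs. The exact upper limits of these shares were 5.96%, 14.8%, 6.94% and 28.5%. The control phagocyte share lay above its limit and the other 3 lay within theirs. These limits are wide because they rest on few cells, so they cannot show whether those 3 shares hold free RNA. In neutrophils the thinned shares were 2.63%, 2.65%, 4.35% and 2.07%, each below the limit of its library, and no difference is read from them. There 2, 2, 1 and 4 cells held 50% of the 66, 192, 63 and 232 pair UMIs. In NK cells the thinned shares were 0.885%, 0%, 0.828% and 0.606%.

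Phagocytes rich in the Hsp70 pair were also rich in other inducible chaperones. Hsph1 was at 285, 351, 382 and 199 CPM in the rich cells and at 23.5, 25.2, 20.8 and 15.98 in the rest, Hsp90aa1 at 1586, 1277, 1459 and 1217 against 335, 319, 301 and 271, and Dnajb1 at 115, 152, 136 and 123 against 34.7, 36.9, 37.0 and 35.7. Hspb1 was at 253, 331, 180 and 255 CPM against 31.4, 13.1, 6.15 and 0.319, the last of these from 24 UMIs. Past 1.5-fold in all 4 libraries, 9 of the other 15 heat shock members were higher in the rich cells (Hsph1, Hspb1, Hspe1, Hsp90aa1, Hsp90ab1, Dnaja1, Dnajb1, Dnajb4 and Bag3) and 0 were lower. Of 9560 genes with at least 3 UMIs in the rich cells of every library, 2.4% were higher and 6.57% lower by that rule. Hspa4 and Chordc1 were below 0 in all 4. The rich cells were picked on 2 heat shock genes, so this describes them and tests nothing.

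Most immediate early genes were also higher in the same cells. Above 0 in all 4 libraries were 11 of 16 and below 0 in all 4 were 2 (Ier2 and Egr1), against 10.9% and 48.3% of all genes, with medians of 0.73, 0.58, 1.07 and 0.54. Higher past the fold in all 4 were 5 of 16 (Fosl2, Jun, Junb, Atf3 and Dusp1). Atf3, a repressor induced by stress, was at 920, 599, 1250 and 754 CPM in the rich cells against 201, 169, 241 and 136, and Jun at 666, 533, 949 and 782 against 277, 226, 287 and 261. Ier2, whose product is a nuclear regulator, was lower past the fold in all 4, at 45.2, 40.1, 68.7 and 75.5 CPM against 105, 94.5, 134 and 135. Egr1 was also lower in all 4 (10.8, 15.8, 39.1 and 15.95 against 35.5, 28.6, 54.2 and 43.8), and Fos did not take 1 direction (110, 138, 283 and 232 against 113, 121, 135 and 163). Inducible chaperones, Atf3 and Jun were thus higher in the same phagocytes, while Ier2 and Egr1 were lower, as 48.3% of all genes were.

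**Figure D3:**
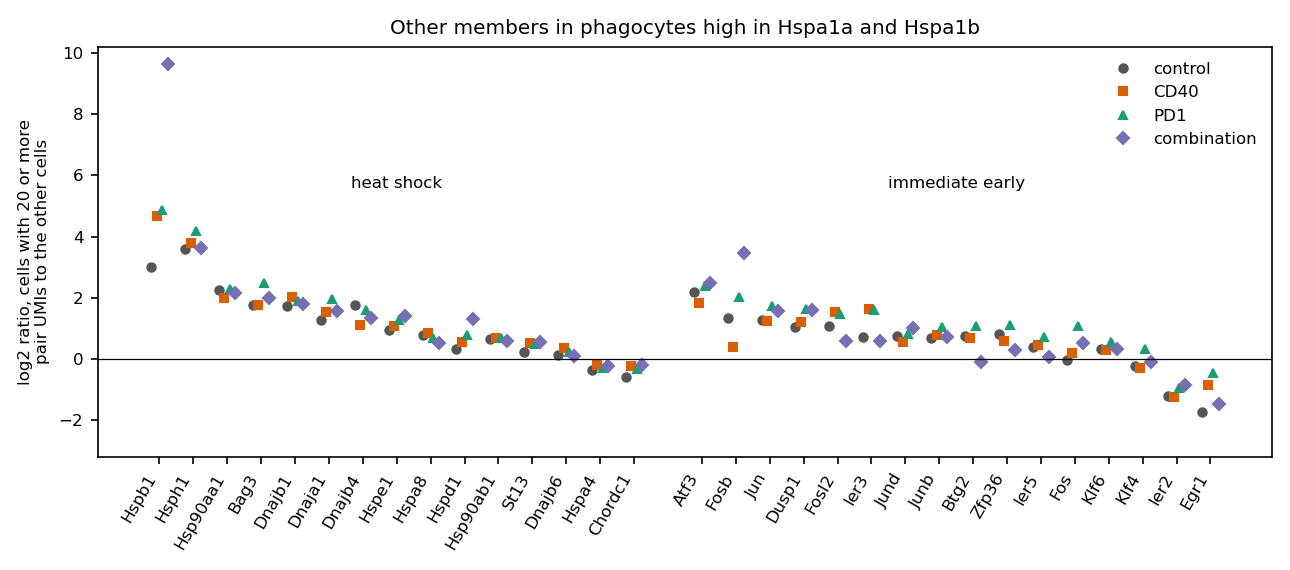
Log2 ratio of the level in phagocytes with 20 or more Hspa1a and Hspa1b UMIs to that in the other phagocytes, for the other 31 members, with 1 point per library. Hsph1 lies between 3.60 and 4.20 in the 4 libraries, and Ier2 lies between -1.24 and -0.84.

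Some cell properties differed between the rich and the other phagocytes in every library and others did not. Median UMIs were 11180, 23174, 11022 and 32428 in the rich cells and 13882, 18726, 12968 and 17631 in the rest. Median mitochondrial shares were 1.35%, 1.26%, 1.18% and 1.43% against 1.27%, 1.33%, 1.11% and 1.29%. Median doublet scores were 0.0536, 0.0479, 0.0482 and 0.0648 against 0.0354, 0.0333, 0.0358 and 0.0338, higher in all 4 and under the limit of 0.25. At least 5 C1q UMIs were found in 55.9%, 55.3%, 46.7% and 58.1% of rich cells and in 46.0%, 43.5%, 38.6% and 32.9% of the rest, also higher in all 4. A UMI of the division genes Mki67 or Top2a was found in 18.6%, 32.9%, 15.8% and 45.2% of rich cells and in 20.1%, 28.2%, 12.8% and 19.2% of the rest. Depth, doublet score, C1q share and division were thus furthest apart in the combination, where the rich cells were fewest, and their part in the result was not tested.

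In CD8 T cells the pair was higher with either antibody alone and low with both. It was measured at 32.8, 80.8, 90.4 and 21.5 CPM, with log2 ratios of 1.30 for CD40 against control (interval 1.13 to 1.47), 1.46 for PD1 against control (1.29 to 1.64) and -2.07 for combination against PD1 (-2.18 to -1.96). Rich cells, by the limit used for phagocytes, numbered 6 of 641, 29 of 1766, 23 of 1014 and 13 of 2957, or 0.936%, 1.64%, 2.27% and 0.440%. The exact intervals were 0.344 to 2.03, 1.10 to 2.35, 1.44 to 3.38 and 0.234 to 0.751. They count cells of 1 library per group, so no treatment difference is read from their overlap or separation. These cells held 67.5%, 83.4%, 89.1% and 63.7% of the pair UMIs. Only 4, 8, 9 and 9 cells held 50% of them, so each of these levels rests on few cells. Rich CD8 T cells had a division UMI in 50%, 72.4%, 82.6% and 69.2%, against 48.0%, 54.3%, 54.9% and 54.3% of the rest. Among CD8 T cells with no division UMI, the log2 ratio was -0.86 for combination against PD1 and -0.16 for PD1 against control, the latter opposite in sign to that of all CD8 T cells.

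Rich CD8 T cells shared inducible chaperones with rich phagocytes. Hsph1 was at 423, 678, 673 and 336 CPM in them against 52.7, 67.9, 70.3 and 58.8 in the rest, and Dnajb1 at 269, 460, 606 and 341 against 45.1, 64.2, 53.4 and 69.7. Jun was at 93.3, 196, 195 and 198 CPM against 29.9, 38.6, 22.7 and 42.2, and Ier2 at 49.4, 45.7, 60.8 and 32.6 against 118, 113, 123 and 124. High Jun and low Ier2 beside Hsp70 were thus measured in both lineages. Rich CD8 T cells were also deeper in all 4 libraries, with median UMIs of 30424, 17794, 21923 and 17864 against 11848, 12941, 15849 and 13336. Their median doublet scores were higher in all 4 too, at 0.0480, 0.0324, 0.0432 and 0.0386 against 0.0197, 0.0197, 0.0203 and 0.0234. The part of depth and doublets in these levels was not tested. Past the fold in all 4 libraries were 7 of 15 heat shock members, all higher (Hsph1, Hspb1, Hspe1, Hsp90aa1, Dnajb1, Bag3 and St13), where 0.906% of 6182 genes were higher and 1.1% lower. Of 16 immediate early members, 4 were higher (Fosl2, Jun, Dusp1 and Klf6) and 1 lower (Ier2), and 12 had at least 3 UMIs in the rich cells of every library.

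Hspb1 had the largest log2 ratios of any CD8 T cell member, at 0.797, 5.4, 9.98 and 0.631 CPM from 8, 153, 196 and 32 UMIs. With Hspa1a and Hspa1b it made up the 3 of 17 heat shock members higher past the fold in CD40 against control and in PD1 against control, where 6.31% and 4.46% of 11860 genes were higher and 8.84% and 8.11% lower. The same 3 were lower past the fold in combination against PD1 (6.46% of genes lower, 7.3% higher) and against CD40 (2.11% lower, 2.84% higher). Here too Hspa1a and Hspa1b may count 1 signal. The other heat shock members stayed closer to control: Hsph1 was measured at 59.4, 81.6, 87.5 and 61.0 CPM, Hsp90aa1 at 439, 474, 527 and 422 and Dnajb1 at 49.1, 73.1, 69.1 and 71.8. In Treg cells the pair was also higher in the CD40 and PD1 libraries than in the other 2, at 27.5, 68.6, 188 and 29.4 CPM, but from 103, 56, 624 and 33 UMIs, of which 2, 1, 2 and 2 cells held 50%. The 6 rich Treg cells in PD1 held 91.3% of its pair UMIs. Their median doublet score was 0.116 against 0.0127 in the rest, and their median UMIs were 22299 against 6844.5. In control and CD40 the 2 and 1 rich Treg cells had higher doublet scores but fewer UMIs than the rest. The part of depth and doublets was not tested. After thinning, Hspa1a in Treg cells was not lower in combination than in PD1 (log2 ratio 0.30 against -2.57 at full depth).

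Immediate early genes were higher in the phagocytes of tumours given PD1 antibody, with and without CD40 antibody. Their sum was at 2502, 2197, 3178 and 2809 CPM, a log2 ratio of 0.34 for PD1 against control (interval 0.34 to 0.35) and 0.35 for combination against CD40 (0.35 to 0.36). These 2 comparisons share no library. Of the 16 members, 12 were above 0 in both, 0 were below 0 in both and 4 took opposite directions (Atf3, Klf4, Fosl2 and Fosb). Over all 13393 genes, 28.7% were above 0 in both and 45.5% below. The median of the 16 was 0.26 and 0.42, against -0.067 and -0.036 over all genes.

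Zfp36 was measured at 287, 257, 469 and 408 CPM, 1.64-fold higher in PD1 than in control (log2 ratio 0.71, interval 0.69 to 0.74) and 1.59-fold higher in combination than in CD40 (0.67, 0.64 to 0.69). Egr1 was measured at 34.8, 28.1, 53.8 and 43.4 CPM, a log2 ratio of 0.63 in each comparison. For both genes the 2 libraries with PD1 antibody lay above the 2 without it, and only these 2 members were past 1.5-fold in both comparisons. Both kept their direction in all 10 alternative settings but lay near the fold limit. Zfp36 stayed past it in 6 settings for each comparison. Egr1 stayed past it in 6 for PD1 against control and in 4 for combination against CD40. Btg2, an antiproliferative gene, was at 82.3, 61.6, 118 and 94.6 CPM, the AP-1 subunit Junb at 392, 398, 584 and 515, and Fos at 113, 122, 140 and 164. Dusp1 was at 78.4, 71.3, 90.3 and 116 CPM and Ier2 at 104, 92.3, 132 and 135. All 5 were higher in both PD1 libraries than in both libraries without PD1 antibody. Jun (287, 238, 306 and 267 CPM), Klf6 (202, 169, 218 and 194) and Klf4 (34.7, 35.3, 31.5 and 40.0) were closer together. Atf3, at 221, 186, 271 and 144 CPM, was lowest in the combination.

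**Figure D4:**
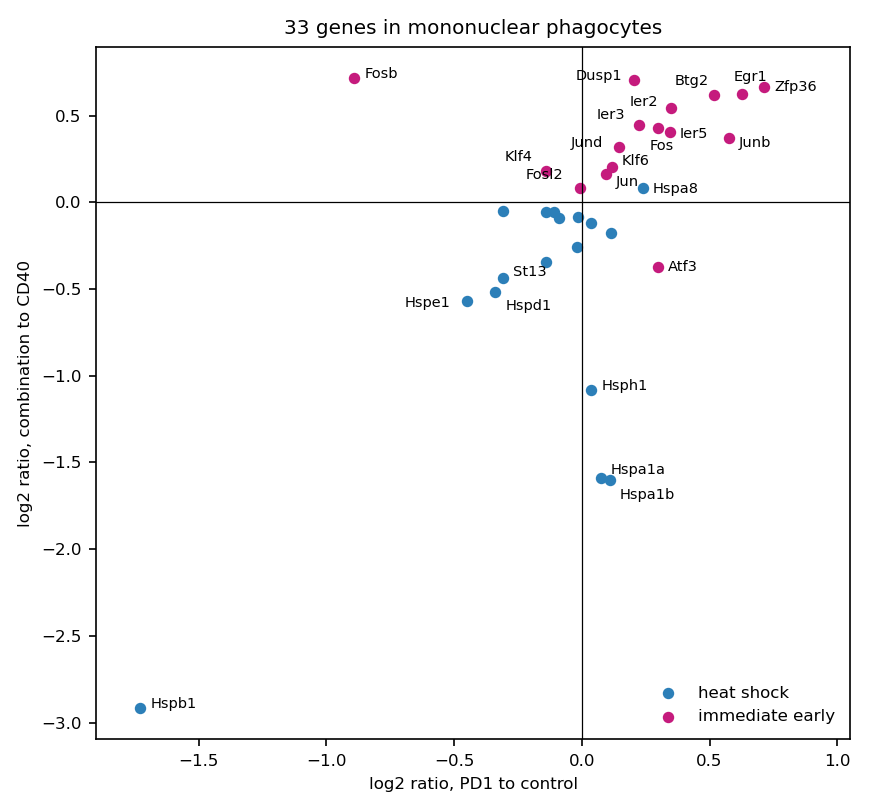
Log2 ratio of PD1 to control (horizontal) against log2 ratio of combination to CD40 (vertical) for the 33 genes in mononuclear phagocytes. The 2 axes share no library. Zfp36 and Egr1 lie past 1.5-fold on both axes, 12 immediate early genes lie in the upper right, and Hspa1a, Hspa1b and Hsph1 lie near 0 horizontally and low vertically.

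Past 1.5-fold, 2 of 16 immediate early members were higher in PD1 than in control (Zfp36 and Egr1; 5.23% of all genes were higher) and 1 lower (Fosb, at 4.48, 2.43, 2.42 and 3.99 CPM; 8.05% lower). For combination against CD40, 5 of 16 were higher (Btg2, Fosb, Zfp36, Dusp1 and Egr1; 4.59% of all genes) and 0 lower (7.52%). Beyond the 16, a list of 36 further immediate early and feedback genes was above 0 for 26 in each of these comparisons, with medians of 0.23 and 0.21. The all-gene medians given above were below 0 in both. The share of all genes above 0 in each single comparison is not given here, so no excess is read from the count of 26. Dusp2, a phosphatase of MAP kinases, was 1.11 and 1.03 higher on the log2 scale, and Socs3, a brake on cytokine receptor signalling, 0.95 and 1.20. The kinases and factors upstream of these genes had 0 of 10 members past the fold in any of the 4 comparisons.

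The phagocyte class is broad, and its makeup moved with treatment. Cells with 5 or more UMIs of the complement genes C1qa, C1qb and C1qc, a macrophage marker, made up 46.3%, 44.0%, 38.8% and 33.1% of it. Cells with none had higher immediate early levels, at 3842, 2965, 4079 and 3426 CPM, than cells with 5 or more, at 1829, 1788, 2487 and 2212. Within the cells with none, the log2 ratio of the sum was 0.09 for PD1 against control and 0.21 for combination against CD40. Within the cells with 5 or more it was 0.44 and 0.31. The direction was thus the same in each stratum, and the size for PD1 against control was larger in the C1q-rich stratum. For the Hsp70 pair, combination against PD1 gave -2.002 and -1.27 in the same strata. In summed counts, fewer cells of a kind and less RNA per cell cannot be told apart within a stratum.

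With CD40 antibody the immediate early members of phagocytes were slightly lower. The log2 ratio of the sum was -0.19 for CD40 against control and -0.18 for combination against PD1, and 9 of 16 members were below 0 in both (Btg2, Ier5, Atf3, Jun, Fosl2, Zfp36, Klf6, Ier3 and Egr1) against 2 above (Klf4 and Fos). Over all genes, 35.6% were below 0 in both and 34.1% above. Past the fold, 0 of 16 were higher and 1 lower (Fosb) in CD40 against control, and 1 higher (Fosb) and 1 lower (Atf3) in combination against PD1. In the further list, Nr4a3, an orphan nuclear receptor, had a log2 ratio of -1.83 for CD40 against control and the phosphatase Dusp4 was higher by 1.43.

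In NK cells Fosl2 and Dusp1 were lower with CD40 antibody in both comparisons. Fosl2, an AP-1 subunit, was measured at 58.0, 23.0, 96.8 and 34.0 CPM, with log2 ratios of -1.33 for CD40 against control (interval -1.69 to -0.98) and -1.51 for combination against PD1 (-1.75 to -1.27). Dusp1 was at 31.8, 16.9, 41.3 and 21.5 CPM, with ratios of -0.91 and -0.94. In both genes the 2 CD40 antibody libraries lay below the 2 others. Of the 14 members measured, 9 were below 0 in both comparisons and 2 above (Jund and Egr1), against 42.3% and 32.1% of 9271 genes. Egr1 went the other way, at 28.5, 63.4, 45.9 and 63.4 CPM.

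Past the fold in NK cells, 5 of 14 immediate early members were lower in CD40 than in control (Jun, Fosl2, Fosb, Klf6 and Dusp1; 14.4% of all genes) and 1 higher (Egr1; 10.5%). For combination against PD1, 2 of 14 were lower (Fosl2 and Dusp1; 8.77% of all genes) and 0 higher (6.92%). Jun was at 72.5, 32.9, 53.0 and 53.4 CPM and Klf6 at 115, 74.7, 115 and 90.2, each lowest in CD40. The median of the 14 was -0.40 and -0.32, against -0.044 and -0.058 over all genes. The further immediate early list had 12 of 31 members lower past the fold and 3 higher in CD40 against control, and 16 lower and 1 higher in combination against PD1. Rgs2, which limits G protein signalling, led the first at -1.45, and Klf9 the second at -1.67. With PD1 antibody, 3 of 14 immediate early members were higher in PD1 than in control (Fosl2, Ier3 and Egr1; 2.57%) and 1 lower (Fosb; 4.71%), and 2 were higher in combination than in CD40 (Jun and Ier3; 2.78%) and 1 lower (Fos; 2.14%). Of the 79 Fos UMIs in the CD40 library, 1 cell held 52, and the log2 ratio of -0.73 became 0.22 with every cell given equal weight, 1.02 in cells with no division UMI and 0.37 after thinning. Heat shock members of NK cells had 1 of 14 past the fold (Hspd1, higher in CD40 than in control) and 0 in the other comparisons.

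NK cells given CD40 antibody were also deeper and divided more. Their median UMIs were 5567.5, 11394.5, 6285 and 11102, and a division UMI was found in 12.2%, 45.4%, 14.7% and 38.5%. In NK cells with no division UMI, Fosl2 was at log2 ratios of -0.96 for CD40 against control and -1.30 for combination against PD1, and Dusp1 at -1.07 and -1.18. After thinning to one depth, Fosl2 was at -1.36 and -1.75 and Dusp1 at -1.11 and -0.69. The sum of all 16 members had differed by less, at -0.17 and -0.22, and was at -0.037 and -0.13 in the cells with no division UMI.

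In neutrophils the CD40 library stood low for immediate early genes, and the combination did not. The log2 ratio of the sum was -0.75 for CD40 against control (interval -0.79 to -0.70), 0.04 for combination against PD1 (0.01 to 0.08) and 0.71 for combination against CD40 (0.69 to 0.74). Ier3, a gene of cell survival signalling, was measured at 2100, 780, 1680 and 2069 CPM, which was lowest in CD40. Junb was at 1861, 1262, 1785 and 2532 CPM and Zfp36 at 983, 781, 1135 and 1865, both lowest in CD40 and highest in the combination. Egr1 was at 262, 189, 189 and 335 CPM. Fos was at 648, 258, 525 and 257 CPM and Dusp1 at 1949, 1071, 1977 and 1560. Fos was therefore low in both libraries with CD40 antibody, unlike Ier3, Junb and Zfp36. Atf3 (450, 262, 545 and 313 CPM) and Ier2 (378, 226, 320 and 208) followed Fos, and Klf4 rested on 2, 72, 15 and 74 UMIs.

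**Figure D5:**
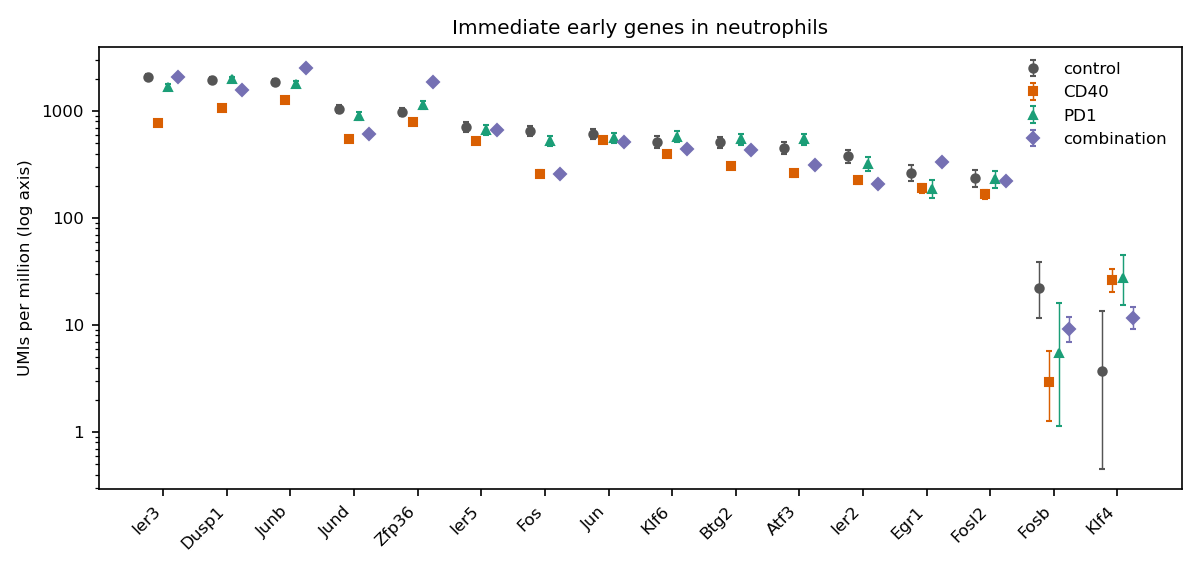
Level of the 16 immediate early genes in neutrophils, in CPM on a log axis, ordered by the control level. Each point is 1 library, and bars are 95% counting intervals. Ier3, Junb and Zfp36 are lowest in the CD40 library, whereas Fos and Ier2 are low in both libraries with CD40 antibody.

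Past the fold, 7 of 15 measured immediate early members of neutrophils were lower in CD40 than in control (Btg2, Atf3, Jund, Ier2, Fos, Dusp1 and Ier3) and 1 higher (Klf4), where 18.1% of 6451 genes were lower and 22.8% higher. For combination against PD1, 4 were lower (Atf3, Klf4, Ier2 and Fos; 39.0% of genes) and 2 higher (Zfp36 and Egr1; 10.4%). For combination against CD40, 4 were higher (Zfp36, Junb, Ier3 and Egr1; 7.46% of genes) and 1 lower (Klf4; 44.3%). For PD1 against control, 1 was higher (Klf4; 13.9%) and 0 lower (15.2%). The median for combination against CD40 was 0.32, against -0.50 over all genes, so the group lay above a background that was shifted down. Over both CD40 antibody comparisons, 10 of 15 members were below 0 in both and 0 above, against 39.7% and 16.8% of all genes.

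Further immediate early genes spread more widely in neutrophils. In CD40 against control, 15 of 32 were lower past the fold and 1 higher (the NF-kappaB inhibitor Tnfaip3, 0.82), led by Fosl1 at -1.65 and Egr2 at -1.55. In combination against CD40, 18 were higher and 7 lower, led by Nr4a3 at 3.44 and Fosl1 at 3.35. Cell numbers, depth and quality moved beside these results. The class held 218, 495, 186 and 1171 cells, the median mitochondrial share was 0.392%, 0.678%, 0.574% and 1.51%, and the 11 phagocyte markers summed to 2414, 3826, 4338 and 2036 CPM within it. Among neutrophils under the phagocyte marker minimum, the log2 ratio of the sum of the 16 members was -0.49 for CD40 against control and 0.52 for combination against CD40. With a mitochondrial limit of 5% the values were -0.68 and 0.60.

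The main heat shock genes of neutrophils were highest in CD40 and lowest in the combination. Hsp90ab1 was measured at 287, 512, 379 and 241 CPM and Hspa8 at 441, 630, 492 and 394. In CD40 against control, 3 of 13 heat shock members were higher (Hspd1, Hspe1 and Hsp90ab1), where 22.8% of all genes were, and 1 lower (Hspa1a; 18.1%). In each of these 2 libraries 2 cells held 50% of the pair UMIs, as given above. In combination against CD40, 7 of 13 were lower and 0 higher, where 44.3% of all genes were lower. With the UMI minimum of the gate doubled, the median of the 13 was 0.0098 in place of -0.63, while Hsp90ab1 stood at -0.84 in place of -1.09.

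Immediate early genes of CD8 T cells stood at low levels, and the combination was above PD1 for several of them. In combination against PD1, 5 of 15 measured members were higher past the fold (Btg2, Jun, Fosb, Fos and Egr1; 7.3% of all genes) and 1 lower (Atf3; 6.46%). In CD40 against control 0 were higher (6.31% of all genes) and 2 lower (8.84%). In PD1 against control 0 were higher (4.46%) and 3 lower (8.11%), and in combination against CD40 2 were higher (2.84%) and 0 lower (2.11%). Egr1, which T cell receptor signalling induces, was at 35.5, 49.4, 45.3 and 71.1 CPM, highest in the combination. Fos was at 5.58, 6.00, 4.94 and 11.2 CPM and Jun at 31.1, 42.1, 27.6 and 43.4. With PD1 antibody, 9 of 15 members were above 0 in both comparisons and 1 below (Dusp1), against 28.0% and 30.03% of all genes.

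In Treg cells the summed immediate early level was lowest in control, at 2662, 3361, 3208 and 3626 CPM. Junb was at 661, 958, 849 and 988 CPM and Egr1 at 72.1, 115, 110 and 131, each lowest in control. In PD1 against control, 3 of 14 members were higher past the fold (Atf3, Fos and Egr1, against 2.78% of 8163 genes) and 0 lower (1.94%). Of the 14, 12 were above 0. The share of all genes above 0 is not given here, so no excess is read from that count. The Fos value rests on few cells, since 2 of 354 PD1 cells held 50% of its 173 UMIs, and its log2 ratio of 1.16 was 0.50 with every cell given equal weight and 0.34 after thinning. Egr1 (0.60) was 0.37 with the gate doubled. In CD40 against control, 2 were higher (Jun and Egr1; 7.09% of genes) and 2 lower (Atf3 and Ier3; 11.9%), from 87 cells in the CD40 library. Both lower calls rested on few UMIs there (1 of Atf3 and 6 of Ier3) and changed sign after thinning, to 1.67 and 0.86. In combination against PD1, 0 were higher (4.09%) and 2 lower (15.2%), and in combination against CD40, 2 were higher (8.67%) and 1 lower (13.2%).

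CD4 T cells outside the Treg gate numbered 185, 60, 163 and 86, and 11 of 16 immediate early members reached the minimum of 100 UMIs. Past the fold there were at most 2 in either direction in any comparison. Egr1 was highest in the combination, at 53.4, 38.5, 50.7 and 101 CPM from 63, 20, 56 and 92 UMIs. In CD40 against control 2 were higher (9.33% of 5379 genes) and 0 lower (11.0%). In combination against PD1 2 were higher (8.72%) and 2 lower (11.3%), in PD1 against control 1 was higher (3.4%) and 1 lower (4.13%), and in combination against CD40 1 was higher (6.49%) and 2 lower (7.94%). Hspa8 was at 1227, 1709, 1334 and 1936 CPM, higher in the 2 CD40 antibody libraries than in the others, but not past 1.5-fold in either comparison. The Hsp70 pair rested on 31, 10, 44 and 67 UMIs there, and in NK cells 1 control cell held 50% of its UMIs, so no order was read for it in either class.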

How the data were processed

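Gene by cell matrices of raw UMI counts were deposited by the authors, 1 per group, from 10x 5′ v2 libraries. Per the submitters' processing notes and the file headers, they were made with Cell Ranger 7.0.0 on GRCm38; neither names the annotation release, intron counting or cell calling. Cells with over 10% mitochondrial UMIs or under 300 genes were dropped, as were predicted doublets (Scrublet in scanpy 1.11.5, score limit 0.25, 1.41% to 2.59%). Library pairs shared 94 to 144 barcodes.

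Classes were gated on summed marker UMIs. Phagocytes, for example, needed 5 UMIs and 20 per 10000, and neutrophils 5 and 50. No class fitted 5.20% to 6.09% of kept cells, and 334 to 529 T cells per library fell outside the 3 T cell classes. Counts were summed per class and library and divided by the class total (CPM). Intervals were exact Poisson for CPM, conditional binomial for ratios and Clopper-Pearson for shares, at 95% (scipy 1.17.1). Under 3 UMIs, ratios used 3 as a floor. Genes with at least 100 UMIs over the 4 libraries of a class were counted as measured, and 1.5-fold as the limit for a count. Thinning took cells with at least 2000 UMIs down to 2000 and left out the others. Calculations were checked on simulated counts.

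Alternatives changed the denominator, cell weight, filters, gate, depth and division. The members and lists were chosen with earlier results of these data known. Named are 17 fixed members in each class, up to 3 further members per direction with the largest ratio, and up to 4 genes of other lists; others were named after their values were seen. Gene positions are from GENCODE vM21 and promoters from RefSeq.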

Additional observations from a re-analysis of the deposited data

Results flagged for a closer look

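In CD8 T and Treg cells, log2 ratios of the Hsp70 pair had opposite signs without and with the other antibody. In CD8 T cells the summed Hspa1a and Hspa1b log2 ratio was 1.30 for CD40 against control but -2.07 for combination against PD1, and it was 1.46 for PD1 against control but -1.91 for combination against CD40. In Treg cells the same ratios were 1.32 and -2.68, and 2.77 and -1.22, and they rest on few cells, as given above. Each pair of values has opposite signs with 1 library per group, and the difference between them was not tested.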

How the results depend on the processing

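No paired analysis was possible because each group had 1 library. Leaving out a library was likewise not possible. Of the alternatives, 4 (the C1q strata, neutrophils under the phagocyte marker minimum, and leaving out the 1% of cells richest in the Hsp70 pair) were chosen after seeing the data. The last of these ranks cells on the pair itself. It took out 53.7%, 58.3%, 55.4% and 80.9% of the pair UMIs in phagocytes, and 67.5%, 71.4%, 57.4% and 80.8% in CD8 T cells. Pair ratios under it are thus partly fixed by the choice, and no support is read from them. The counts that follow include it. Of 146 log2 ratios past 1.5-fold, 124 kept their direction under every setting run and 66 stayed past the fold. Values below are log2 ratios, and the cause of each move was not tested. For the first 3 results the reported values are -0.20 (heat shock sum, CD8 T cells, combination against PD1), -2.07 (Hsp70 pair, same comparison) and -0.07 (heat shock sum, phagocytes, combination against PD1).

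With mitochondrial, ribosomal and member UMIs left out of the denominator, the CD8 heat shock sum was -0.249 and that of phagocytes -0.0749. With equal weight for every cell they were -0.168 and -0.146, in cells with no division UMI -0.0445 and -0.133, after thinning -0.152 and -0.153, and without the richest 1% -0.178 and -0.0440. In phagocytes the sum was -0.0487 with the doubled gate, -0.136 with no C1q UMI and -0.0128 with at least 5. The CD8 pair was -0.86 with no division UMI, -1.88 after thinning and -3.23 without the richest 1%.

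The phagocyte pair in combination against PD1 (-1.62) was -1.904 with equal weight, -1.502 with the doubled gate, -2.035 with no division UMI, -1.83 after thinning, -2.002 and -1.27 in the C1q strata (none, then at least 5) and -2.84 without the richest 1%. Against CD40 (-1.59) it was -1.65 with equal weight, -2.31 with no division UMI, -1.95 and -1.35 in the strata and -2.71 without the richest 1%.

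The phagocyte immediate early sum in PD1 against control (0.34) was 0.320 with the other denominator, 0.238 with equal weight, 0.206 with no division UMI, 0.233 after thinning, and 0.086 and 0.444 in the strata. In combination against CD40 (0.35) it was 0.312, 0.285, 0.237, 0.263, 0.208 and 0.307 in the same order. In CD40 against control (-0.19) it was -0.178 with the other denominator, -0.266 with equal weight, -0.272 after thinning, and -0.374 and -0.0323 in the strata. In combination against PD1 (-0.18) it was -0.219 with equal weight, -0.160 with no division UMI, -0.242 after thinning, -0.252 and -0.169 in the strata and -0.166 without the richest 1%. The neutrophil sum in CD40 against control (-0.75) was -0.458 with equal weight, -0.678 with a mitochondrial limit of 5%, -0.639 with the doubled gate, -0.662 with no division UMI, -0.546 after thinning and -0.492 under the phagocyte marker minimum.

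The values that changed sign follow. In CD8 T cells, PD1 against control, the pair (1.46) was -0.16 and Hspa1a (1.65) -0.45 with no division UMI. In CD4 T cells the pair in PD1 against control (0.60) was -0.0784 with equal weight, -0.933 with no division UMI, -0.0750 after thinning and -1.34 without the richest 1%. Fosl2 there was 0.117 and 0.0507 with no division UMI, and 0.462 and 0.234 after thinning, in combination against PD1 (-0.75) and against CD40 (-0.62). In Treg cells, CD40 against control, Hspb1 (-1.42) was 1.02 with the doubled gate, 2.09 with no division UMI and 1.18 without the richest 1%, Ier3 (-0.95) was 0.0631 with equal weight and 0.858 after thinning, and Atf3 (-1.08) was 1.67 after thinning. In Treg combination against PD1, Hspa1a (-2.57) was 0.298 after thinning, and Hspb1 (-3.84) was 0.959 after thinning and 1.51 without the richest 1%. In Treg PD1 against control, Hspb1 (1.55) was -0.836 with equal weight, -1.85 after thinning and -1.22 without the richest 1%.

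In NK cells without the richest 1%, the pair in CD40 against control (-2.42) was 0.331, and for the combination against PD1 (-0.82) it was 0.189. In PD1 against control (-0.68) it was 0.967 with equal weight and 0.804 after thinning, and in combination against CD40 (0.92) -0.412 after thinning and -0.670 without the richest 1%. NK Fos in combination against CD40 (-0.73) was 0.220 with equal weight, 1.02 with no division UMI and 0.366 after thinning. In neutrophils, PD1 against control, thinning gave -0.0126 for Hspa1b (0.71) and for Klf4 (2.30), and -0.498 for Dnajb1 (0.65). In combination against CD40 the doubled gate gave 0.533 for the pair (-0.94), 0.629 for Hspa1a (-0.90), 0.417 for Hspa1b (-0.97), and 0.0098 for the heat shock median (-0.63).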

Other observations

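Conventional dendritic cells numbered 627, 40, 434 and 42, in the order control, CD40, PD1 and combination, and were described only. Fos was measured at 97.7, 35.3, 104 and 64.1 CPM, Ier2 at 126, 38.8, 135 and 85.9 and Btg2 at 179, 70.5, 177 and 117, each lower in the 2 CD40 antibody libraries. Junb went the other way, at 543, 862, 601 and 1021 CPM, as did Dusp1, at 101, 220, 83.3 and 240. Egr1 rested on 392, 2, 417 and 17 UMIs.

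The highest Hsp70 pair level of any class was in control B cells, at 485 CPM, where 1 of 228 cells held 522 of the 540 UMIs.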
